A study of Arabidopsis thaliana with 4 samples.

Results

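The 10 genes described here encode the transcription factors and ubiquitin ligases that set the iron response of the Arabidopsis thaliana root. They were taken by identifier from the 27655 genes of the deposited table. They are the Ib subgroup of basic helix-loop-helix (bHLH) factors (BHLH38, BHLH39, BHLH100 and BHLH101), the factor POPEYE (PYE), the IVc bHLH factors ILR3 and BHLH104, and the ligases BRUTUS (BTS), BTSL1 and BTSL2. Roots of wild-type Columbia (Col-0) seedlings had grown for 8 days in Murashige and Skoog medium at 5 µM phosphate (low_Pi, 2 libraries) or at 625 µM phosphate (plus_Pi, 2 libraries), in a study on cis-zeatin, a cytokinin, in the root response to phosphate starvation. The sample labels call the low_Pi plants grown without phosphate, and the deposited table calls the roots dark grown. No mutant or transgene was involved, and the labels do not give the iron supply of the medium.

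In iron-deficient roots the IVc factors ILR3 and BHLH104 activate the genes of the Ib factors and of PYE. The Ib factors then pair with the factor FIT to switch on ferric reductase, the iron transporter IRT1 and other uptake genes, while PYE represses genes of iron storage and movement. BTS marks IVc factors for degradation and BTSL1 and BTSL2 mark FIT, so the ligases act as a brake that is itself raised in iron deficiency. Low phosphate supply is known to lower iron uptake genes and to raise ferritin genes in roots.

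Values are the deposited normalized counts, whole numbers whose normalization is not given in the sources used here, with column totals from 38831704 to 44635953. The read depth behind them is therefore unknown, and no counting interval is given. Within each group the 2 columns were nearly proportional. Their chi-square per gene, which would be about 1 for unscaled independent read counts, was 0.278 in low_Pi and 0.444 in plus_Pi. It changes with the scale of the values, so it does not show whether the columns differ by less than read sampling would give. Each group was counted as 1 sample as the more cautious choice, so differences between the groups carry no test, p-value or standard deviation. Log2 differences are low_Pi minus plus_Pi after adding 41.5 to each value (a fixed small share of the mean column total), which understates the change of genes with low values. A gene was called lower or higher at a 2-fold difference on this scale. The median gene lay at -0.26, and median-of-ratios scaling moved it to about 0, so differences relative to the median gene are also given. In the labelled tissue, 7 of 7 endodermis and 9 of 9 stele markers had a mean above 41.5. IPS1, an RNA induced by phosphate starvation, had 27943 and 26144 in low_Pi roots, against 99 and 412 in plus_Pi.

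The upstream sequences of 4 genes are shown because ILR3 and BHLH104 bind E-box elements such as the G-box, and because the Ib genes and BTS are known targets of the complexes they form. The windows of the Ib gene BHLH101 and of PYE, also activated by the IVc factors, held no E-box and are not shown. The 4 sequences therefore do not stand for all such targets. Each line gives the 250 bases before the annotated gene start, 5′ to 3′ on the gene's strand, from the RefSeq TAIR10.1 genome. All 27445 nuclear identifiers of the table were found in that annotation, while the authors' build is not given in the sources used here. Capitals mark matches to the E-box CANNTG, a class that holds the G-box CACGTG. The windows are chr3:21085246-21085495 (minus strand), chr3:21087711-21087960 (minus), chr2:17199455-17199704 (minus) and chr3:6273716-6273965 (plus).
BHLH38: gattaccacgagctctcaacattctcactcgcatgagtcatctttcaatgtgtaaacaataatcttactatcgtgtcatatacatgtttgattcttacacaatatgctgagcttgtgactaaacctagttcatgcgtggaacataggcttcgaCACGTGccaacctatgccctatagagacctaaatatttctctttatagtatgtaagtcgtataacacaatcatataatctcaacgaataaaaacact
BHLH39: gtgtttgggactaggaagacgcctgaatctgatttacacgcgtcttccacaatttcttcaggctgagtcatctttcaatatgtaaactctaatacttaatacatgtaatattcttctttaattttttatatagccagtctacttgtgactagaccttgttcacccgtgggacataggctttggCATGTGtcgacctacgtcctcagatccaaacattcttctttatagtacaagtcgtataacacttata
BHLH100: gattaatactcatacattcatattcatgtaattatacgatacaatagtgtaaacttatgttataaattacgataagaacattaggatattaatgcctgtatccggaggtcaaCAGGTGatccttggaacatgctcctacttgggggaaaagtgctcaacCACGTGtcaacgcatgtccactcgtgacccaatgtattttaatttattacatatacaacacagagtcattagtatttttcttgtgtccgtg
BTS: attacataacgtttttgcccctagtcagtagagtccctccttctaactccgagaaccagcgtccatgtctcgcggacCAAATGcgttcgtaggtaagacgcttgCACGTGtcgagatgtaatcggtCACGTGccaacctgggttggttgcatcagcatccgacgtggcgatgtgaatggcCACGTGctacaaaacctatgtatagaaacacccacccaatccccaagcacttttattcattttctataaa

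A G-box lay in these windows of 3 of the 10 genes, BHLH38, BHLH100 and BTS, and in 6.49% of the windows of 27445 genes. BHLH38 had its G-box 97 bases before the gene start and BHLH100 had one at 91 bases. BTS had 3, at 146, 124 and 70 bases. The tandem neighbour BHLH39 had CATGTG at 67 bases, and the BHLH101, PYE and BHLH104 windows held no E-box. E-boxes of any kind were found for 7 of the 10 genes and in 55.3% of all windows. The P1BS element GNATATNC, the binding site of the phosphate starvation factor PHR1, was found in the 250-base window of BHLH104 alone, 21 bases before its start, and in 5.46% of all windows. Over 1000 bases it was found for 4 of the 10 genes, BHLH38, BHLH39, BHLH100 and BHLH104, and for 20.3% of all genes. Each motif reads the same on both strands. These matches describe letters in a window and are not shown to be bound.

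In low_Pi, 9 of the 10 genes had lower values and 1, ILR3, had higher ones, and in none did the columns of the groups overlap. Such separation was common, as 62.5% of 18729 genes with a mean of at least 41.5 had both low_Pi columns below both plus_Pi columns and 21.9% had both above. Without that filter it was 49.1% and 20% of 27655 genes. At the 2-fold rule 3 of the 10 genes were lower (BHLH39, BHLH101 and BTSL1) and 0 were higher. Of all 18729 genes, 4.47% were lower and 4.58% were higher by that rule, and without the filter it was 3.11% and 3.17% of 27655. As counts these were 838 lower and 857 higher genes past the filter, and 428 lower and 1235 higher with median-of-ratios scaling. A 1.5-fold rule added BTSL2 to the lower genes, for 4 of 10 against 20.7% of all genes, and called 0 higher, against 8.77%. The median log2 difference of the 10 genes was -0.57, against -0.26 for the 18729 genes past the filter and -0.08 for all 27655. Of the 10 genes, 9 lay below the median gene of -0.26. In bulk roots, fewer cells of a type and less RNA per cell cannot be told apart. BHLH100 missed the filter on the mean, and BHLH38 and BHLH101 passed it only through their plus_Pi values, so the counts here cover all 10 genes without the filter.

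**Figure D1:**
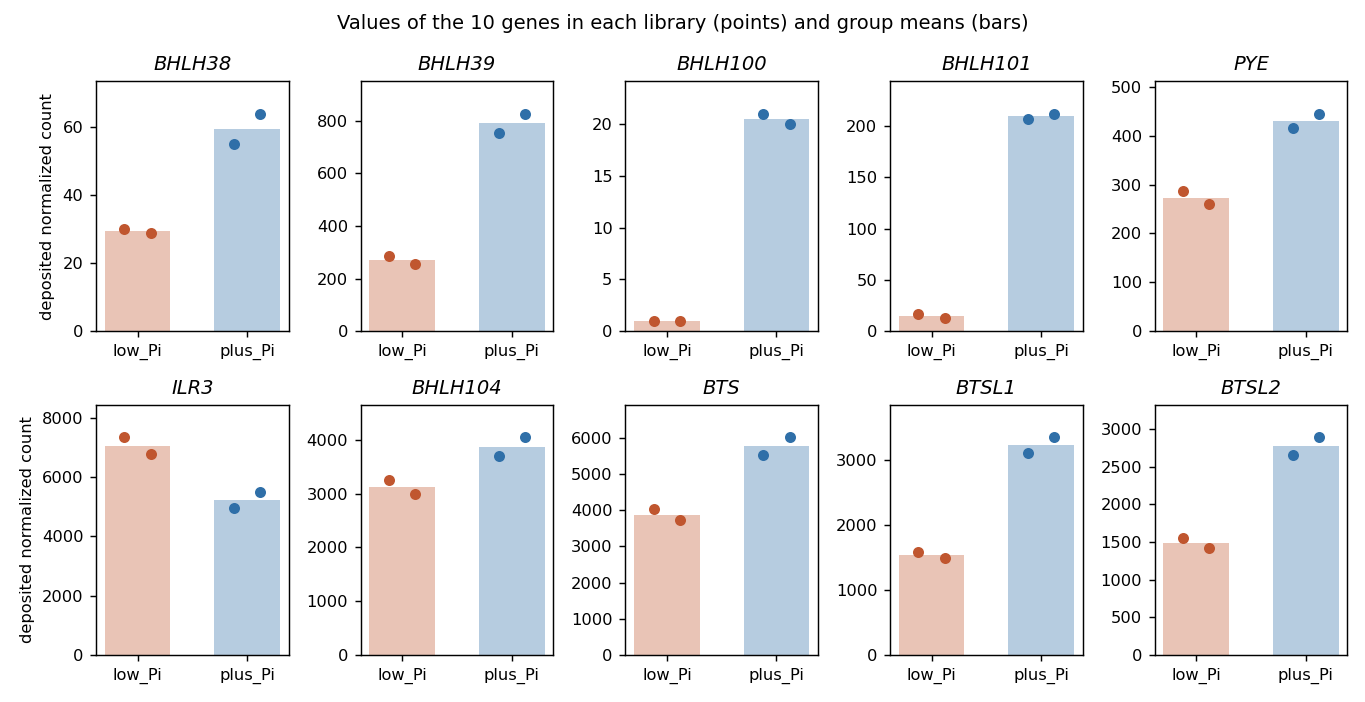
Deposited normalized counts (vertical axes, linear from 0) of the 10 genes in low_Pi (left) and plus_Pi (right); points are the 2 libraries of a group and bars their mean. Both low_Pi points lie below both plus_Pi points in every panel but that of ILR3, where they lie above, at 7347 and 6788 against 4953 and 5510.

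The Ib factors are the DNA-binding partners of FIT, and BHLH39 and BHLH101 of this set had the largest log2 differences of the 10 genes at the reported pseudocount. That order depended on it, since BHLH100 (-2.26) lay beyond BHLH39 (-1.54) when 4.15 was added, and BTSL1 (-0.97) beyond BHLH101 (-0.91) when 208 was added. BHLH39 (AT3G56980, chr3:21086390-21087710, minus strand, 2 exons) had 284 and 254 in low_Pi roots, against 753 and 826 in plus_Pi. Its low_Pi mean was 34.1% of the plus_Pi mean, and its log2 difference of -1.42 was -1.16 relative to the median gene, at percentile 1.51 of all genes ordered from the most lowered. BHLH101 (AT5G04150, chr5:1138410-1139633, minus strand, 3 exons when its transcripts are merged) had 17 and 13 in low_Pi roots, against 207 and 212 in plus_Pi. That was 7.16% of the plus_Pi mean and a log2 difference of -2.15, at percentile 0.502. The BHLH101 value was -3.49 with the smaller pseudocount and under 2-fold with the larger one. BHLH101 was thus more lowered than BHLH39 at the reported pseudocount and at the smaller one, though not at the larger.

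BHLH38 and BHLH100 had low values in both groups. BHLH38 (AT3G56970, chr3:21084035-21085245, minus strand, 2 exons) had 30 and 29 in low_Pi roots, against 55 and 64 in plus_Pi, so that its low_Pi mean was 49.6% of the plus_Pi mean. With 41.5 added its log2 difference was -0.51, under the 2-fold rule, and -0.25 relative to the median gene. BHLH100 (AT2G41240, chr2:17198037-17199454, minus strand, 2 merged exons) had 1 and 1 in low_Pi roots, against 21 and 20 in plus_Pi. Its log2 difference was -0.54 with 41.5 added and -2.26 with 4.15 added, which called it lower. All 4 Ib genes therefore had lower values in low_Pi, but for these 2 the size could not be fixed at such values.

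BHLH38 and BHLH39 lie in tandem on chromosome 3 with 1144 bases between them, and their coding sequences were identical at 84.8% of 762 aligned bases. Identity with BHLH100 was 75.3% for BHLH38 and 75.8% for BHLH39, while BHLH101 stood further off, at 61.1% to 63.6% with each of the others. No run of 50 exon bases of any of the 10 genes occurred in the exons of a gene elsewhere in the annotation. Overlapping neighbours on the opposite strand were another matter, since the labels' protocols do not mention strand. Of the runs of 50 exon bases in BHLH38, 34.2% also lay in exons of PIP5K4 (AT3G56960), which had 248 and 226 in low_Pi roots, against 322 and 345 in plus_Pi. For BHLH101 it was 3.21%, shared with GLU1 (AT5G04140), a plastid glutamate synthase gene with 103 and 98 in low_Pi roots, against 228 and 244 in plus_Pi. How much of the BHLH38 and BHLH101 values came from these neighbours was not tested. In all 4 libraries the BHLH38 values lay below those of PIP5K4, and the BHLH101 values lay below those of GLU1.

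Within each library, the make-up of the Ib set differed between the groups, a measure that does not depend on scaling between libraries. Of the summed Ib value per kilobase of exon, BHLH39 made up 84.1% in both low_Pi libraries, against 70.4% and 71.4% in plus_Pi. BHLH101 made up 5.65% and 4.83% in low_Pi roots, against 21.7% and 20.6% in plus_Pi. BHLH38 made up 9.97% and 10.8% in low_Pi roots, against 5.78% and 6.21% in plus_Pi. BHLH39 was therefore the main Ib transcript in both groups, and BHLH101 was the second in plus_Pi but ranked below BHLH38 in low_Pi.

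**Figure D2:**
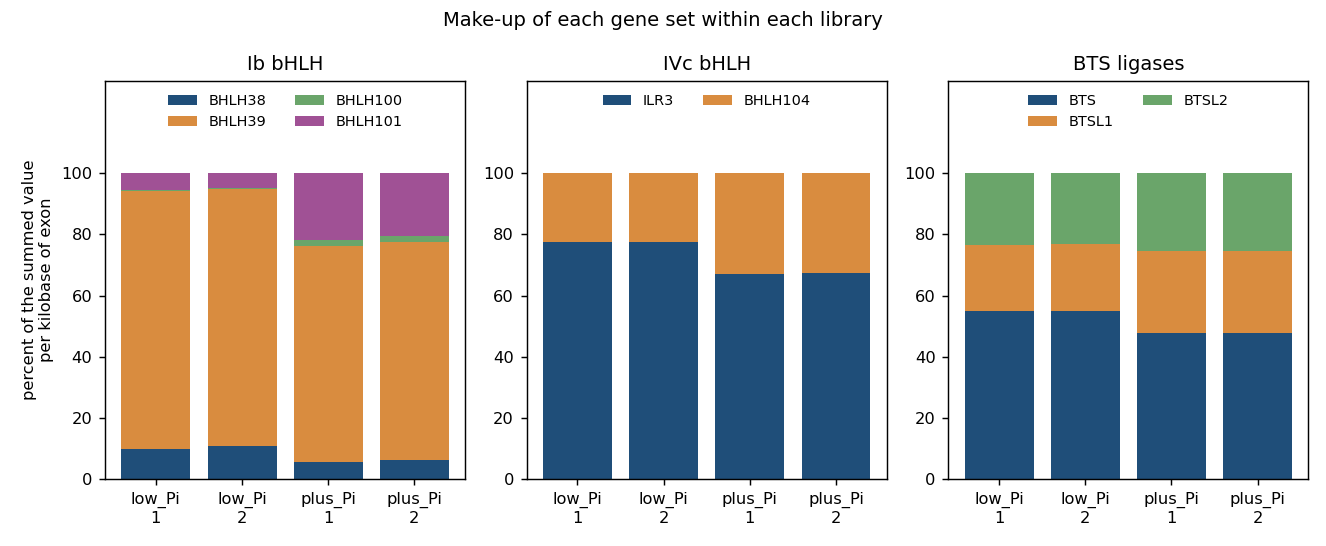
Percent of the summed value per kilobase of exon (vertical axis) that each gene made up within its set, for the 2 low_Pi and the 2 plus_Pi libraries. The BHLH101 segment is 5.65% and 4.83% in low_Pi and 21.7% and 20.6% in plus_Pi, and the ILR3 segment is 77.5% and 77.6% in low_Pi and 67.1% and 67.5% in plus_Pi.

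PYE (AT3G47640, chr3:17567126-17569394, plus strand, 7 merged exons), a bHLH repressor of iron storage and transport genes, was under 2-fold lower. It had 286 and 261 in low_Pi roots, against 416 and 445 in plus_Pi, or 63.5% of the plus_Pi mean. The log2 difference was -0.58, or -0.33 relative to the median gene, at percentile 20.8. Its difference was thus modest beside those of BHLH39 and BHLH101.

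The IVc factors, which stand above the Ib genes in the cascade, had the highest values of the 10 genes per kilobase of exon and went different ways. ILR3 (AT5G54680, chr5:22216934-22219274, plus strand, 5 exons) had 7347 and 6788 in low_Pi roots, against 4953 and 5510 in plus_Pi. This was 135% of the plus_Pi mean, with a log2 difference of 0.43, or 0.69 relative to the median gene, at percentile 88.5. ILR3 was not 2-fold higher in any setting tried, where its difference ran from 0.36 to 0.71. BHLH104 (AT4G14410, chr4:8299397-8301667, plus strand, 4 merged exons) had 3249 and 2996 in low_Pi roots, against 3706 and 4050 in plus_Pi. Its log2 difference of -0.31 was only -0.05 relative to the median gene, and -0.03 with median-of-ratios scaling. Per kilobase, ILR3 stood at 3.45 and 3.46 times BHLH104 within the low_Pi libraries, against 2.04 and 2.08 times within the plus_Pi libraries. GAUT12 (AT5G54690) overlaps ILR3 by 51 bases on the opposite strand and had 1464 and 1326 in low_Pi roots, against 890 and 991 in plus_Pi. An antisense lncRNA gene, AT5G08235, overlaps ILR3 by 630 bases and is not a row of the table used here. Of the runs of 50 exon bases in ILR3, 2 of 1077 (0.186%) also lay in exons of another gene.

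The 3 BRUTUS-type ligases, iron-binding proteins with a RING domain, were all lower in low_Pi, and BTSL1 passed 2-fold. BTSL1 (AT1G74770, chr1:28089172-28094956, minus strand, 11 merged exons) had 1591 and 1498 in low_Pi roots, against 3104 and 3350 in plus_Pi. Its low_Pi mean was 47.9% of the plus_Pi mean and its log2 difference -1.04, or -0.79 relative to the median gene, at percentile 3.92. This call stood just past the rule and was absent with median-of-ratios (-0.77), trimmed-mean and quantile scaling, with a common column total, with the larger pseudocount and without plus_Pi replicate 2 (-0.99). BTSL2 (AT1G18910, chr1:6532559-6538145, minus strand, 12 exons) had 1556 and 1426 in low_Pi roots, against 2653 and 2889 in plus_Pi. That was 53.8% of the plus_Pi mean and a log2 difference of -0.88, just short of the rule, at percentile 6.83. BTS (AT3G18290, chr3:6273966-6280562, plus strand, 14 exons) had 4029 and 3735 in low_Pi roots, against 5516 and 6016 in plus_Pi. Its mean was 67.3% of that in plus_Pi, with a log2 difference of -0.57, or -0.31 relative to the median gene.

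BTSL1 and BTSL2 resembled each other in sequence and in value. Their coding sequences were identical at 79.0% of aligned bases, against 61.8% and 61.4% for BTSL1 and BTSL2 with BTS. Of the summed ligase value per kilobase, BTS made up 54.9% in both low_Pi libraries, against 47.8% and 47.9% in plus_Pi. The BTSL1 gene shares 10.7% of its runs of 50 exon bases with AT1G74750 on the opposite strand, and BTSL2 shares 2.59% with AT1G18900. AT1G74750 had 409 and 402 in low_Pi roots, against 425 and 452 in plus_Pi, and AT1G18900 had 1001 and 915 in low_Pi roots, against 976 and 1084 in plus_Pi.

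**Figure D3:**
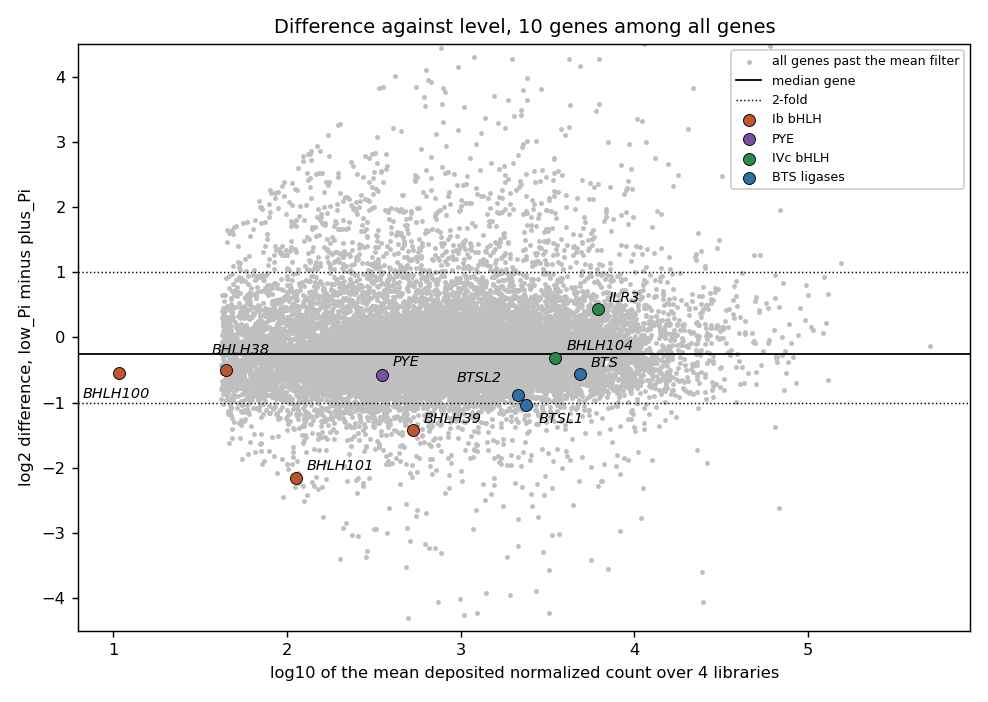
Log2 difference, low_Pi minus plus_Pi (vertical axis), against the log10 mean value (horizontal axis) for the 10 genes (coloured points) and all genes with a mean of at least 41.5 (grey; 34 genes lie outside the axis). The solid line is the median gene at -0.26 and dotted lines mark 2-fold; BHLH39, BHLH101 and BTSL1 lie below the lower one and ILR3 lies above the median gene.

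The ratio of activator to ligase transcripts was compared within each library, which again needs no scaling between libraries. Per kilobase, ILR3 stood at 6.20 and 6.18 times BTS in low_Pi roots, against 3.05 and 3.11 times in plus_Pi. BHLH104 stood at 1.80 and 1.79 times BTS in low_Pi, a mean ratio 1.20 times as high as in plus_Pi. ILR3 stood at 26.9 and 27.2 times PYE in low_Pi roots, against 12.5 and 13.0 times in plus_Pi. Like BTS and PYE, the Ib gene BHLH39 was lower relative to ILR3 in low_Pi. BHLH39 stood at 0.0421 and 0.0407 times ILR3 in low_Pi roots, against 0.165 and 0.163 times in plus_Pi. ILR3 was thus about 2 times as high relative to BTS in low_Pi as in plus_Pi, and BHLH39 was about 0.252 times as high relative to ILR3. These are ratios of transcripts, and the ligases act on proteins.

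The order of the levels per kilobase of exon was similar in the groups. In low_Pi it ran from ILR3 (5557 and 5135 per kilobase) through BHLH104 (1609 and 1484) and BTS (896 and 831) to BTSL2 (383 and 351) and BTSL1 (353 and 333), which overlapped. BHLH39 (234 and 209) and PYE (206 and 188) followed closely, and then came BHLH38 (27.7 and 26.8), BHLH101 (13.9 on average) and BHLH100 (0.864 in both). In plus_Pi, ILR3 (3747 and 4168), BHLH104 (1836 and 2006) and BTS (1227 and 1338) again came first. BTSL1 (690 and 744), BTSL2 (653 and 711) and BHLH39 (620 and 680) formed a run in which neighbours overlapped across libraries. Within each library, BTSL1 stood at 0.923 and 0.948 times BTSL2 in low_Pi, against 1.06 and 1.05 times in plus_Pi. These small gaps rest on division by the full exon length. BTSL1 shares 10.7% of its runs of 50 exon bases with an opposite-strand neighbour and BTSL2 2.59%, so their order is not settled. In plus_Pi, PYE (300.4 and 321) came after that run of genes, ahead of BHLH101 (191 and 196), BHLH38 (50.8 and 59.1) and BHLH100 (18.2 and 17.3). BHLH39 came next after the BTSL genes within every library. Across libraries its values overlapped those of BTSL2 in plus_Pi but not in low_Pi.

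Genes around the cascade are given by counts over whole lists, without the filter, so the matching shares are the 3.11% lower and 3.17% higher of all 27655 genes. The filter was passed by 8 of 9 other bHLH partners, 1 of 3 IMA genes, 11 of 13 targets of FIT and the Ib factors, 3 of 3 PYE targets, 7 of 9 storage genes and 6 of 8 genes of iron movement. Of the 9 other bHLH partners, 2 were 2-fold lower and 0 higher, with a median of -0.27. FIT (AT2G28160), the partner of the Ib factors, had 1074 and 1003 in low_Pi roots, against 2052 and 2267 in plus_Pi (log2 -1.03). BHLH11 (AT4G36060), a repressor of iron uptake, had 119 and 109 in low_Pi roots, against 423 and 482 in plus_Pi (log2 -1.67). The remaining IVc genes, named after their values were seen, stood near 0, with BHLH115 at -0.00052 and BHLH34 at -0.0043 on the log2 scale, or 0.26 and 0.25 relative to the median gene. The FIT call was close to the rule, as FIT stood at -0.77 relative to the median gene. URI (BHLH121), which works with the IVc factors, was at -0.55 and was also named after its value was seen.

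IMA genes encode small peptides that hold the BRUTUS-type ligases in check. Of these 3 genes 2 were 2-fold lower, but IMA1 missed the filter on the mean and IMA2 passed it only through its plus_Pi values. IMA1 (AT1G47400) had 8 and 8 in low_Pi roots, against 60 and 71 in plus_Pi, and IMA2 (AT1G47395) had 8 and 6 in low_Pi roots, against 118 and 129 in plus_Pi. Their log2 differences were -1.11 and -1.77, or -0.85 and -1.51 relative to the median gene. IMA3, outside the naming rule, was listed at 0 in all 4 libraries. None of the 3 had a mean above 41.5 in both groups.

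Of 13 targets of FIT and the Ib factors, 5 were 2-fold lower and 0 higher, with a median of -0.43. They were the copper transporter gene COPT2 (log2 -3.93), the iron transporter gene IRT1 (-2.94), CYP82C4 of coumarin synthesis (-2.38), the ferric reductase gene FRO2 (-1.94) and the metal transporter gene NRAMP1 (-1.25). Relative to the median gene, NRAMP1 stood at -0.997, just short of 2-fold, and FRO2 at -1.68. By direction, 12 of the 13 had lower values and 1, F6H1, had higher ones, at 0.48, or 0.74 relative to the median gene. FRO2, NRAMP1 and F6H1 fall outside the naming rule and were added after their values were seen. None of the 3 PYE targets was 2-fold apart, and all had lower values, with a median of -0.69 and FRO3, a ferric reductase gene, at -0.74.

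Of 9 genes of iron storage and other repressed targets, VTL5, a vacuolar iron transporter-like gene, was 2-fold lower at -1.44, and none was higher (median -0.03). That median is the value of VIT1, with 5 and 5 in low_Pi roots, against 6 and 6 in plus_Pi, too low to show a size. Of the 9 genes, 5 had lower and 4 had higher values, and VTL1 and VTL2 were at -0.96 and -0.71. The ferritin gene FER1, which ILR3 and PYE repress, was at 0.51, FER3 at 0.45, FER4 at 0.30 and FER2 at -0.31. Relative to the median gene, FER2 stood at only -0.06. These 4 ferritin genes, VIT1, VTL1 and VTL2 fall outside the naming rule and were added after their values were seen. Of 8 genes of iron movement within the plant, NAS1, a nicotianamine synthase gene, was 2-fold lower at -1.56, and the median was -0.18.

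**Figure D4:**
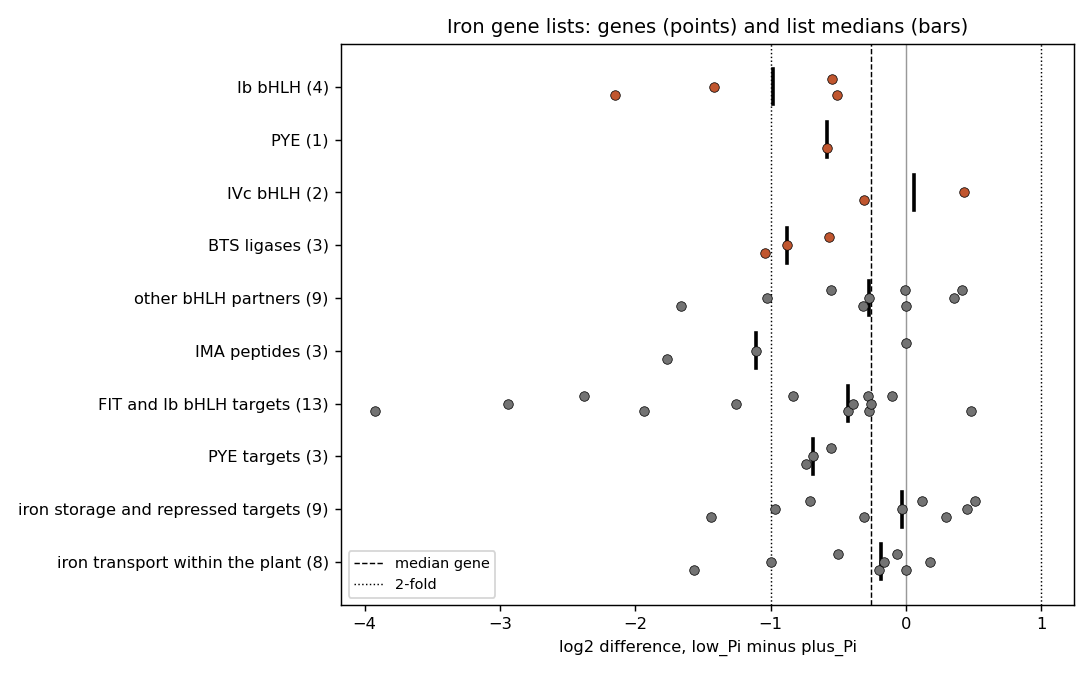
Log2 difference, low_Pi minus plus_Pi (horizontal axis), of each gene (points) in the 4 sets of the 10 genes (orange) and in 6 other iron lists (grey), with list sizes in parentheses and black bars for list medians. The Ib set (median -0.98), the ligases (-0.88) and the IMA peptides (-1.11) have the lowest medians. The dashed line (-0.26) is the median of genes past the filter, against -0.08 without it, while the lists are unfiltered. The median of the iron storage list (-0.03) is VIT1, a gene with values of 5 to 6.

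The 3 genes whose pattern over the 4 libraries was nearest to the mean of BHLH38, BHLH39 and BHLH101 were AT1G05575, AT2G38600 and AT1G03620. The filter left BHLH100 out of that mean and let in BHLH38 and BHLH101 only through their plus_Pi values. Their Euclidean distances on the centred log2 scale were 0.0115, 0.0153 and 0.0159, among 18720 genes compared. AT1G05575 had 132 and 123 in low_Pi roots, against 375 and 406 in plus_Pi. With 4 libraries in 2 groups, such a distance reflects little more than the size of the difference, and 107 genes lay within 0.1.

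Markers of several root cell types and of green tissue differed between the same groups. All 10 green tissue markers were lower, with 3 past 2-fold, sums of 4185 and 3864 in low_Pi roots, against 6689 and 7369 in plus_Pi, and none at 0. Of 6 root hair markers, 4 were 2-fold higher, with sums of 45691 and 42240 in low_Pi roots, against 8804 and 10109 in plus_Pi. By direction, 5 of these 6 markers were higher and 1 was lower without overlap. Sums of 3 meristem markers were 518 and 479 in low_Pi roots, against 891 and 987 in plus_Pi. Stele markers summed to 42024 and 38821 in low_Pi roots, against 32490 and 35822 in plus_Pi, with none of 9 past 2-fold. Endodermis markers summed to 24533 and 22789 in low_Pi roots, against 17731 and 19489 in plus_Pi. Of these 7 markers, 4 were higher and 3 lower without overlap, and none passed 2-fold. The part of these shifts in the values of the 10 genes was not tested.

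**Figure D5:**
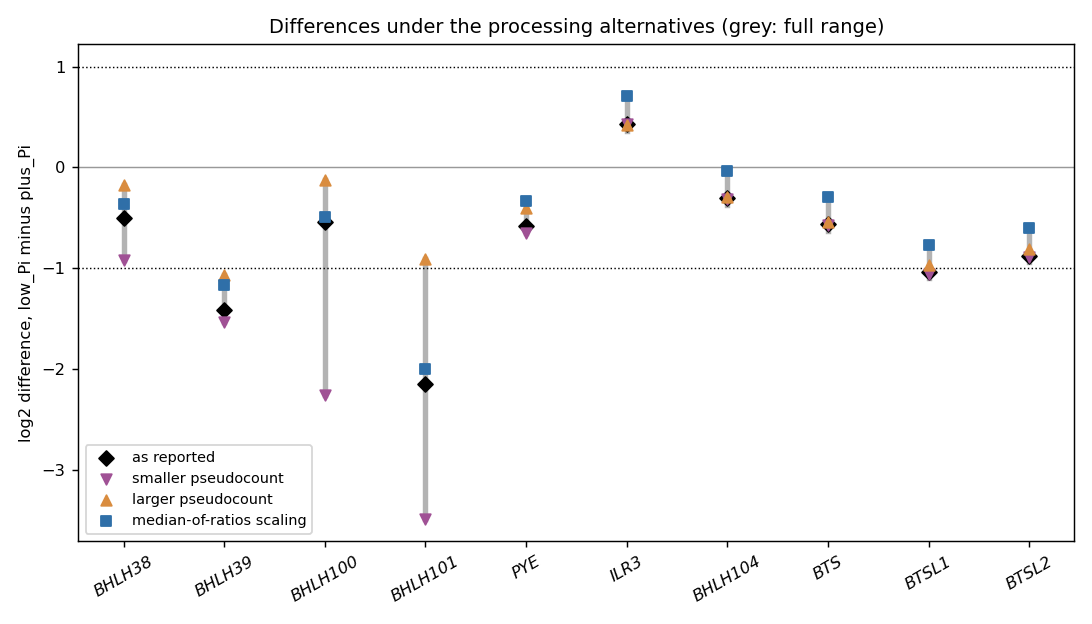
Log2 difference, low_Pi minus plus_Pi (vertical axis), of each of the 10 genes as reported (black), with a smaller (4.15) or larger (208) pseudocount and with median-of-ratios scaling; grey bars span all settings and dotted lines mark 2-fold. BHLH101 runs from -3.49 to -0.91 and BHLH100 from -2.26 to -0.13, while BHLH39 stays between -1.54 and -1.06.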

How the data were processed

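Polyadenylated RNA of roots was sequenced in 4 libraries, per the labels' protocols. Tools named in the submitters' processing notes, with no role given, are CASAVA 1.4, HISAT2, HTSeq, edgeR and FastQC, and the genome build is not given in the sources used here. The authors deposited normalized counts as whole numbers, which were treated as a score of unknown depth, so no count model was fitted. Columns were matched to samples by name; 1 low_Pi column was matched to its group only and keeps the number in its name.

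The 10 genes and the gene lists were chosen with earlier results of these data known. Log2 differences used a pseudocount of 41.5, and genes entered the background with a mean of at least 41.5 (18729 genes). Because the columns of a group count as 1 sample, a 2-fold size rule was used. limma 3.58.1 in R 4.3.3 was run over the 4 columns as an alternative. Scripts were tested on simulated data. Named genes were the 10 genes, up to 3 genes a list at least 2-fold apart (or that with the highest mean), and the 3 nearest in pattern; genes named outside this rule are marked as such in the text or are overlapping neighbours. Gene models and sequences are RefSeq TAIR10.1, which held 27445 of the 27655 identifiers. Coding identity came from global alignments (Biopython 1.88). Proteins were not used here.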

Additional observations from a re-analysis of the deposited data

How the results depend on the processing

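Of the differences of the 10 genes, 0 changed sign in 14 settings. The columns of the groups did not overlap for any of these genes, so only the settings that rescale columns could have changed a sign. By over 1.5-fold, 3 values moved: BHLH100 at -2.26 and BHLH101 at -3.49 with a pseudocount of 4.15, and BHLH101 at -0.91 with 208. The larger pseudocount left 1 gene 2-fold lower, BHLH39. The median of the 10 genes (-0.57) became -0.90 at a pseudocount of 4.15 and -0.48 at 208. It was -0.43 under median-of-ratios scaling, -0.43 under trimmed-mean scaling and -0.48 under quantile normalization, and ran from -0.63 to -0.54 without 1 library. The count of genes 2-fold lower (3) was 2 with each scaling, with a common column total (chosen after seeing the data) and without plus_Pi replicate 2, 4 with a 1.5-fold rule or a pseudocount of 4.15, and 0 genes were 2-fold higher throughout. Genes 2-fold lower among all genes numbered 838, against 428 under median-of-ratios scaling, 427 under trimmed-mean scaling, 502 under quantile normalization, 1310 and 350 at pseudocounts of 4.15 and 208, and 695 to 1027 without 1 library, and genes 2-fold higher 857, against 565 at a pseudocount of 208.

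limma, with Benjamini-Hochberg adjustment at 0.05, called 9 of 9 genes past the filter and 69.1% of all genes, and 6 to 8 of 9, with 38.7% to 58.6% of all genes, when 1 library was left out, where its group's remaining library is taken to vary as the other group does. Such calls rest on how little columns within one group differ. Of the 9 genes, BHLH38 and BHLH101 passed the filter only through their plus_Pi values, the group where they are higher, so their calls are no separate support. With the replicate block limma called 7 of 9 genes and 38.5% of all genes, and the log2 differences and the count of 3 were unchanged by construction. The labels do not say that a replicate number marks a shared batch, and across genes the deviations of columns with the same number had a correlation of -0.11, or -0.03 with a common column total. No count model was run. Depth is unknown, and values such as 1 and 21 for BHLH100 limit what can be said of its size.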
